A study of Mus musculus with 3 samples.

Results

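The regulators of paraxial and lateral mesoderm described here are 9 transcription factor genes chosen by name, *Foxf1a*, *Foxf2*, *Foxc1*, *Foxc2*, *Tcf15*, *Meox1*, *Osr1*, *Prrx1* and *Tbx4*, out of 17633 genes with a read in any library. All 9 were listed in all 3 libraries. The study compared the transcriptomes of the primary germ layers, endoderm, mesoderm and epiblast, in E7.5 embryos of the ICR strain, an outbred mouse stock. The embryos carried no engineered allele and received no treatment that the labels name. The germ layers were separated by enzyme and by hand after the embryonic region had been cut off, and the epiblast sample also held neuroectoderm and primitive streak. RNA pooled over many embryos gave 1 library per germ layer, so there was no replicate, and every test below compares 2 libraries and not 2 germ layers. In bulk samples such as these, fewer cells of a type and less RNA per cell cannot be told apart.

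During gastrulation, cells of the epiblast pass through the primitive streak and spread out as mesoderm. The mesoderm nearest the midline is paraxial and forms the somites, the next is intermediate and forms the kidney and gonad, and the outermost is lateral plate, which forms the heart, limb mesenchyme, gut wall and vessels. Forkhead, basic helix-loop-helix, homeobox, zinc finger and T-box factors mark these subdivisions, and the 9 genes include members of each class.

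Of the 9 genes, 5 were higher in mesoderm than in either other layer, by the study's criteria of RPKM>5 in at least 1 library, Fold Change>2 and FDR<0.001. These were *Foxc2*, *Foxf1a*, *Tcf15*, *Foxc1* and *Meox1*. RPKM is a gene's read number scaled to gene length and library total. FDR is the Benjamini-Hochberg adjusted p-value of the Audic-Claverie exact test (two-sided), run on reads over all genes. The same criteria called 4.41% of all genes higher in mesoderm than in endoderm and 2.58% higher in mesoderm than in epiblast. Where edgeR was given a coefficient of variation of 0.4 between samples of a layer, an assumed value, *Foxc2* and *Tcf15* alone of the 9 were called higher in mesoderm than in epiblast, and 4, all of the 5 but *Foxc1*, higher than in endoderm. *Osr1*, *Prrx1*, *Foxf2* and *Tbx4* did not reach RPKM>5 in any library, but the 95% Poisson interval of *Osr1* in mesoderm (4.45 to 5.42) included 5. Without the RPKM criterion, all 9 were higher in mesoderm than in endoderm (12.0% of all genes; 6 with edgeR at a coefficient of 0.4, without *Foxf2*, *Foxc1* and *Prrx1*), and 8, all but *Prrx1*, were higher than in epiblast (6.99% of all genes; 2 with edgeR at 0.4). The RPKM of all 9 was highest in mesoderm, as was that of 31.1% of all genes.

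The genes lie on 6 chromosomes, and positions are those of the GENCODE M21 annotation of GRCm38. On chromosome 8, *Foxf1a* (annotated as *Foxf1*, chr8:121084386-121088144, plus strand) and *Foxc2* (chr8:121116171-121118895, plus strand) lie 28.0 kb apart. On chromosome 13, *Foxf2* (chr13:31625816-31631403, plus strand) and *Foxc1* (chr13:31806633-31812476, plus strand) lie in the same direction. *Tcf15* is at chr2:152143561-152149097 on the plus strand, *Meox1* at chr11:101877510-101894374 on the minus strand, *Osr1* at chr12:9570116-9581500 on the plus strand, *Prrx1* at chr1:163245119-163313710 on the minus strand and *Tbx4* at chr11:85886422-85916097 on the plus strand. Exons of *Foxf1a* and *Foxf2* overlap 1 annotated miRNA gene each, *Gm27530* and *Gm27516*, on the opposite strand. Whether strand was used in counting is not given in the sources used here.

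RefSeq start sites on GRCm38.p6 could be matched for 4 of the 9 genes. For *Foxf2*, 23 bases of the window lay outside annotated exons. The windows before the starts of the other 3 are shown because the genes shared a mesoderm maximum, with that of *Fendrr*, the noncoding RNA gene that is read away from *Foxf1a*. Each runs 5′ to 3′ on the gene's own strand and leaves out annotated exon bases. Capitals mark matches, on either strand, to the TATA box, CCAAT box, GC box, forkhead site and T-box site, whose letters are spelled out after the windows. The first is chr13:31806396-31806632 (plus), the second chr1:163313711-163313900 (minus), the third chr11:85896515-85896764 (plus) and the last chr8:121083111-121083360 (minus).
*Foxc1*: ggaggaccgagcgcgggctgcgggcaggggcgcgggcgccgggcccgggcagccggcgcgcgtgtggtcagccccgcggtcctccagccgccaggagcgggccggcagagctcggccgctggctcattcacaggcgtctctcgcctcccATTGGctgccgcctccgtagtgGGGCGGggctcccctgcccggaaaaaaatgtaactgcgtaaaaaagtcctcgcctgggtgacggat
*Prrx1*: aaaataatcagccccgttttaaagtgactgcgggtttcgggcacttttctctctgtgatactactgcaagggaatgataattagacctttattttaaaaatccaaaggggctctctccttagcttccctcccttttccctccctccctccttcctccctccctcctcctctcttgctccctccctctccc
*Tbx4*: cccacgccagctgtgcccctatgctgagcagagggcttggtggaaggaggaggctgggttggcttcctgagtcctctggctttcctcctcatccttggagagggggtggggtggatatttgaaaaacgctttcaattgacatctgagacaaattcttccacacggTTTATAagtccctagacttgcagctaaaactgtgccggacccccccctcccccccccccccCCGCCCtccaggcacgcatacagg
*Fendrr*: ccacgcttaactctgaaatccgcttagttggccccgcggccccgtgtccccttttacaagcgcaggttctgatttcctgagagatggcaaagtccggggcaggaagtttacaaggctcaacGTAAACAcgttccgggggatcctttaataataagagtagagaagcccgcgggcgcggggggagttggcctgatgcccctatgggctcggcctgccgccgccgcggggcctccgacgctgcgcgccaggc

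The *Foxc1* window had 72.6% G and C and 29 CpG, an observed to expected CpG ratio of 0.932. The *Fendrr* window was also rich in CpG, with a ratio of 0.958 at 62% G and C. The *Prrx1* and *Tbx4* windows had ratios of 0.335 and 0.285, and the median over 32851 promoters was 0.373. The windows of the 4 genes therefore lie on both sides of the usual value. *Foxc1* had a CCAAT box 101 bases and a GC box 79 bases before the start, *Tbx4* a TATA box 85 and a GC box 24 bases before it, and *Fendrr* a forkhead site 129 bases before it. The TATA box was searched as TATAAA and was found in 12.4% of all promoter windows. The CCAAT box, searched under its own letters, was found in 33.8% of them. The GC box was searched as GGGCGG and was found in 32.7%. The forkhead site, searched as GTAAACA, was the rarest and was found in 3.17%. The T-box site, searched as AGGTGTG, was found in 5.10% of all windows and in none of these. The *Prrx1* window held none of these letters. The RefSeq start of *Tbx4* lies inside the annotated gene body, downstream of the annotated first base. The files give gene totals, so the start that was used in these embryos cannot be read from them.

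Reads on genes numbered 40.8 M to 42.7 M per library. All 7 mesoderm markers (*Mesp1*, *Kdr*, *Pdgfra*, *Hand1*, *Snai1*, *Tbx6* and *Lefty2*) were highest in mesoderm and all 8 endoderm markers in endoderm. Of the 7 epiblast markers, 4 were highest in epiblast and the other 3, *Fgf5*, *Epcam* and *Cdh1*, in endoderm. The mesoderm markers were at a median of 6.37% of their mesoderm level in endoderm (range 0.451% to 18.1%) and 23.0% in epiblast (range 1.89% to 88.2%). Foxf1 also served the study as a mesoderm marker when it checked the dissection, so the high level of *Foxf1a* in mesoderm is not independent of that check. The epiblast library thus contained mesoderm marker RNA, and the part of these cells in the epiblast levels below was not tested.

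**Figure D1:**
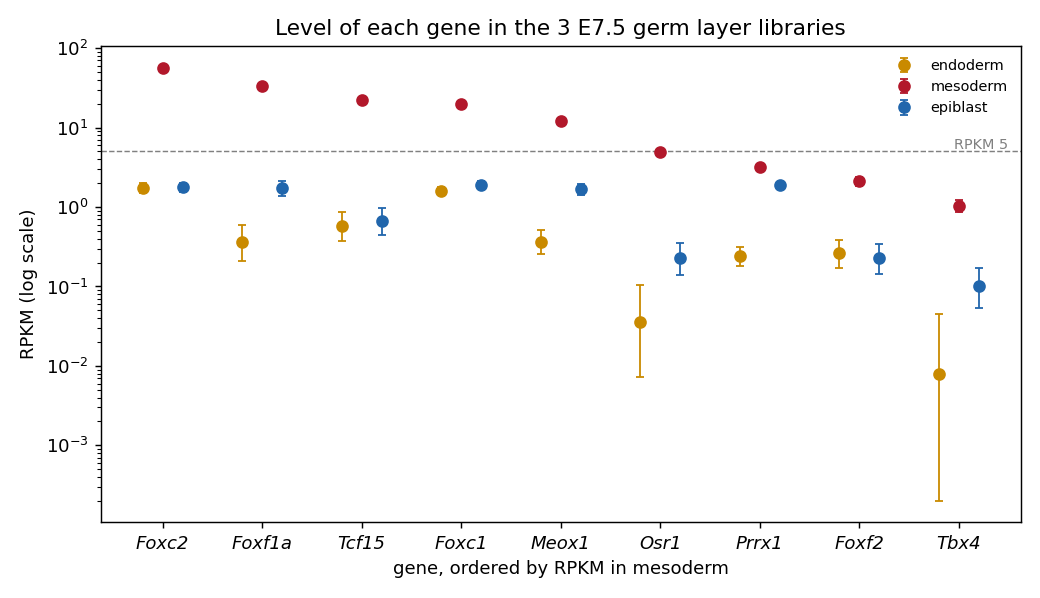
RPKM of the 9 genes (log scale) in the endoderm, mesoderm and epiblast libraries, 1 library each, with exact 95% Poisson intervals that cover counting error only. The mesoderm point is the highest for every gene, from 1.03 for *Tbx4* to 55.5 for *Foxc2*, and the epiblast point of *Prrx1* comes closest to it. The dashed line is the study's RPKM criterion.

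Among the forkhead genes, *Foxc2*, which acts with *Foxc1* in somite and vessel formation, had 198, 6206 and 206 reads in the endoderm, mesoderm and epiblast libraries, or RPKM of 1.74, 55.5 and 1.76. Both other layers were low and equal within counting error, with an epiblast to endoderm ratio of 1.01 and a 95% interval of 0.831 to 1.24. Mesoderm was 32.0-fold above endoderm (27.7 to 37.0) and 31.5-fold above epiblast (27.4 to 36.4). The level in mesoderm was higher than that of 91.4% of the genes in that library, the highest rank among the 9.

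*Foxc1* had 266, 3186 and 325 reads in endoderm, mesoderm and epiblast, or RPKM of 1.60, 19.5 and 1.91. Mesoderm was 12.2-fold above endoderm (10.8 to 13.9) and 10.2-fold above epiblast (9.14 to 11.5), and its intervals did not overlap those of *Foxc2*. The RPKM of *Foxc2* was 1.08 times that of *Foxc1* in endoderm, 0.923 times in epiblast and 2.84 times in mesoderm. On the annotated exon lengths these were 1.60, 1.36 and 4.18 times, so *Foxc2* was the higher in mesoderm on either length, while the order in epiblast turned with the length. The epiblast to endoderm ratio of *Foxc1* was 1.19 (1.01 to 1.41) with an adjusted p of 0.0501 in the Audic-Claverie exact test.

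*Foxf1a*, which is required for lateral plate and extraembryonic mesoderm and for the allantois and yolk sac, had 16, 1440 and 78 reads, or RPKM of 0.362, 33.2 and 1.72. Mesoderm was 91.8-fold above endoderm (56.3 to 161.0) and 19.3-fold above epiblast (15.4 to 24.6). Epiblast in turn was 4.75-fold above endoderm (2.75 to 8.73), so that the 3 libraries were separated from each other. Reads covered 99.6% of the listed gene length in mesoderm and 84.7% in endoderm. The length used for *Foxf1a*, 1062 bases, is 44.0% of its annotated exons, and on the annotated length its mesoderm RPKM would be 14.6 in place of 33.2.

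*Foxf2*, which acts in the mesenchyme of the palate and gut, had 26, 204 and 23 reads, or RPKM of 0.264, 2.11 and 0.228. It was low in all 3 libraries, with mesoderm 8.0-fold above endoderm (5.30 to 12.5) and 9.27-fold above epiblast (6.01 to 15.0). No difference between epiblast and endoderm was detectable, with a ratio of 0.863 and an interval of 0.470 to 1.57. On the listed lengths, the RPKM of *Foxf1a* was 15.7 times that of *Foxf2* in mesoderm, 7.56 times in epiblast and 1.37 times in endoderm. On the annotated exon lengths these were 6.91, 3.32 and 0.602 times, so which of the 2 was higher in endoderm depended on the length.

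Of the genes of the paraxial mesoderm, *Tcf15*, also called paraxis, a basic helix-loop-helix factor needed for somites to become epithelial, had 23, 851 and 27 reads, or RPKM of 0.582, 22.0 and 0.666. Its pattern was close to that of *Foxc2*, with mesoderm 37.7-fold above endoderm (25.0 to 59.8) and 33.0-fold above epiblast (22.5 to 50.3). The epiblast to endoderm ratio was 1.15 (0.632 to 2.09), and thus no difference was detectable. Reads covered 95.8% of *Tcf15* in mesoderm and 43.1% and 40.9% in endoderm and epiblast.

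*Meox1*, a homeobox gene of the somites and sclerotome, had 34, 1103 and 159 reads, or RPKM of 0.365, 12.1 and 1.67. The order was mesoderm over epiblast over endoderm, as for *Foxf1a*. Mesoderm was 33.1-fold above endoderm (23.5 to 48.0) and 7.25-fold above epiblast (6.14 to 8.62), and epiblast was 4.56-fold above endoderm (3.13 to 6.82). Its paralog *Meox2* had 0, 31 and 2 reads, and *Meox1* was 37.4-fold above it in RPKM in mesoderm.

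The last 3 genes act in intermediate mesoderm, limb and allantois and stayed below RPKM 5. *Osr1*, a zinc finger gene of the intermediate mesoderm and kidney, had 3, 407 and 20 reads, or RPKM of 0.0355, 4.92 and 0.231. It was just below the RPKM criterion in mesoderm, with an interval of 4.45 to 5.42, so the counts did not settle on which side it lay. With only 3 reads in endoderm, the mesoderm to endoderm ratio was 138.3 with an interval of 47.0 to 673.6. The mesoderm to epiblast ratio was 21.3 (13.6 to 35.2). The paralog *Osr2* had 21, 26 and 40 reads, so *Osr1* was 13.2-fold above it in RPKM in mesoderm, while *Osr2* was 8.30-fold above *Osr1* in endoderm and 2.37-fold above it in epiblast. On the annotated exon lengths these were 27.5-fold, 3.99-fold and 1.14-fold.

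*Prrx1*, a paired-related homeobox gene of limb and lateral plate mesenchyme, had 50, 643 and 397 reads, or RPKM of 0.241, 3.16 and 1.87. It differed from the other 8 genes in its epiblast level, which was 59.1% of that in mesoderm, against 3.03% to 13.8% for the others. Mesoderm was 13.1-fold above endoderm (9.83 to 17.9) but 1.69-fold above epiblast (1.49 to 1.92), which misses Fold Change>2. The listed length of *Prrx1* is 45.0% of its annotated exons. Its paralog *Prrx2* had RPKM of 0.710, 15.2 and 1.59, and was thus 4.82-fold above *Prrx1* in mesoderm.

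*Tbx4*, a T-box gene of hindlimb and allantois, had 1, 127 and 13 reads, or RPKM of 0.00797, 1.03 and 0.101. It was the lowest of the 9 in each library, and its mesoderm level exceeded that of 32.7% of the genes in that library. The mesoderm to endoderm ratio of 129.5 rested on 1 read in endoderm and had an interval of 22.8 to 5155. The mesoderm to epiblast ratio was 10.2 (5.76 to 19.7). *Tbx5*, the forelimb and heart paralog, had 2, 364 and 2 reads and was 2.19-fold above *Tbx4* in mesoderm.

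**Figure D2:**
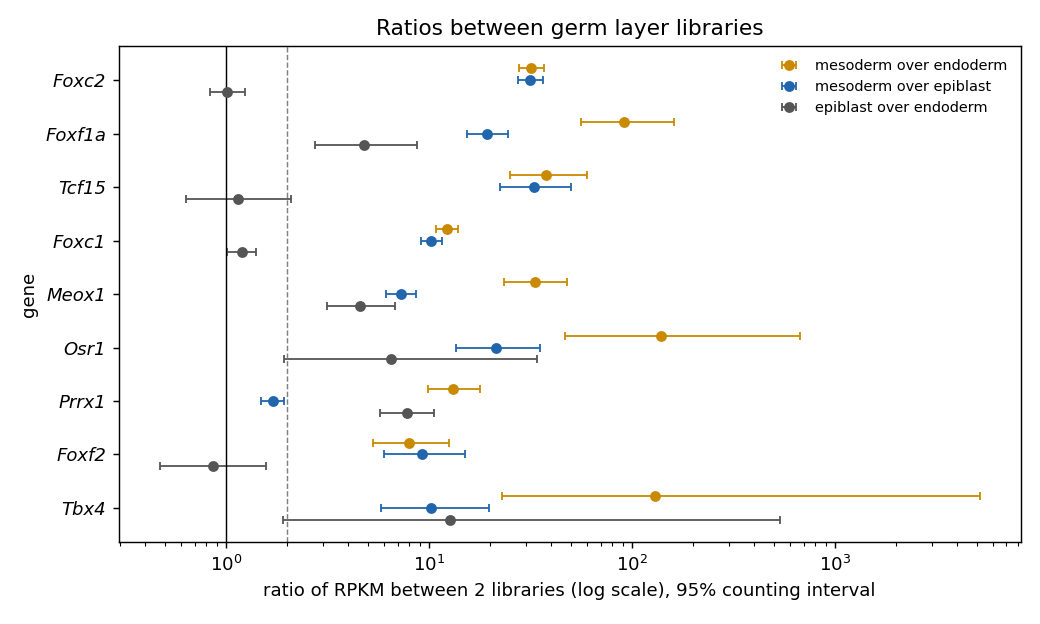
Ratio of RPKM between 2 libraries (log scale) for each gene, with exact 95% intervals that cover counting error only; the solid line marks a ratio of 1 and the dashed line Fold Change of 2. All mesoderm to endoderm ratios lie above 2, *Prrx1* is the only gene whose mesoderm to epiblast ratio lies below it, and the epiblast to endoderm intervals of *Foxc2*, *Tcf15* and *Foxf2* include 1.

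The order of the 9 genes by RPKM in mesoderm was *Foxc2*, *Foxf1a*, *Tcf15*, *Foxc1*, *Meox1*, *Osr1*, *Prrx1*, *Foxf2* and *Tbx4*. The counting intervals of neighbours in this order did not overlap, the closest being *Tcf15* (20.5 to 23.5) and *Foxc1* (18.9 to 20.2). With the reads halved, since the mates of a pair appear to have been counted separately, these became 19.9 to 24.2 and 18.6 to 20.5 and overlapped, so the order of *Tcf15* and *Foxc1* was not settled by the counts. The lengths listed for 3 genes were far shorter than their annotated exons, and with the annotated lengths the RPKM of *Foxf1a* was 14.6, of *Foxc1* 13.3 and of *Prrx1* 1.42. *Tcf15* (21.3) was then second, and *Foxf2* (2.11) was above *Prrx1*. The ratios between libraries do not depend on the length. The median ratio of the 9 was 33.1-fold (5.05 on the log2 scale) for mesoderm to endoderm and 10.2-fold (3.36) for mesoderm to epiblast. Summed over the 9 genes, the RPKM came to 153.5 in mesoderm but 5.19 in endoderm and 10.1 in epiblast.

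Epiblast and endoderm, the layers without the high level, were compared next. By the full criteria, 0 of the 9 genes were higher in epiblast than in endoderm, as none reached RPKM 5 in either, while 4.58% of all genes were called. Without the RPKM criterion, *Foxf1a*, *Meox1*, *Osr1* and *Prrx1* were higher in epiblast (13.1% of all genes), and with edgeR at the assumed coefficient of 0.4 the count was 0. *Prrx1* had the largest of these ratios, 7.74 (5.76 to 10.6). *Osr1*, with 3 reads in endoderm, had a ratio of 6.50 (1.93 to 34.2) and an adjusted p of 0.000957 in the Audic-Claverie test, just past the threshold. *Tbx4* had a ratio of 12.7 on 1 read (1.90 to 538.9) and an adjusted p of 0.00324, and was not called. *Foxf2*, *Foxc1*, *Foxc2* and *Tcf15* had ratios of 0.863 to 1.19, so the 9 genes fell on both sides of the criteria here.

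The counts bear on how narrow these intervals are. Genes with 1 read had a median of 90 bases covered, and even counts were more frequent than odd ones. In mesoderm, 1669 genes had an even count from 2 to 10 and 680 an odd count from 1 to 9. Thus, the 2 mates of a pair appear to have been counted separately, and the intervals printed here are too narrow. With the reads halved, the mesoderm to epiblast interval of *Prrx1* widened to 1.41 to 2.03, that of *Foxc1* for epiblast to endoderm to 0.945 to 1.51, and *Osr1* was no longer higher in epiblast than in endoderm (adjusted p = 0.0642, Audic-Claverie exact test). All other calls above, with and without the RPKM criterion, stayed the same.

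The other known genes of paraxial and of lateral and intermediate mesoderm were listed for comparison. Of 17 other paraxial genes, 10 were higher in mesoderm than in endoderm by the full criteria and 5 higher than in epiblast. The 5 were *Mesp1*, *Mesp2*, *Ripply1*, *Ripply2* and *Dll3*, genes of nascent mesoderm and of segmentation. The other 5 called against endoderm were not called against epiblast, among them *Tbx6*, a T-box gene that sets paraxial fate (RPKM 3.77, 38.7 and 34.1 in endoderm, mesoderm and epiblast), and *Msgn1*, a helix-loop-helix gene of presomitic mesoderm (2.79, 35.1 and 38.9). The other 7 genes of the list did not reach RPKM>5 in any library. Without the RPKM criterion, *Pax3* and *Meox2* were higher in mesoderm than in both other layers and *Pax9* was lower in mesoderm than in endoderm, while *Pax1*, *Uncx*, *Tbx18* and *Myf5* had no more than 20 reads in any library and were not called in mesoderm against either layer. The median over the list was 8.83% of the mesoderm level in endoderm and 48.9% in epiblast.

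Of 24 other lateral and intermediate genes, 8 were higher and 1, *Tbx3*, was lower in mesoderm than in endoderm, and 13 were higher in mesoderm than in epiblast. *Hand1*, a lateral plate and heart factor, had RPKM of 0.999, 221.7 and 33.2, and *Bmp4*, a ligand of the lateral mesoderm and amnion, 1.11, 33.6 and 2.69. By contrast, *Gata4*, a heart and endoderm factor, was at 61.4, 36.0 and 2.15 and highest in endoderm. The list's median was 38.3% of the mesoderm level in endoderm and 9.22% in epiblast. The 9 genes had medians of 3.02% and 9.76%, with ranges of 0.723% to 12.5% and 3.03% to 59.1%. Both lists ranged widely. The paraxial one ran from 0% to 1296.7% in endoderm and from 3.86% to 310.9% in epiblast. The 310.9% was *Uncx*, on 4 reads in mesoderm and 13 in epiblast, and was not called. The lateral and intermediate list ran from 0.451% to 741.9% in endoderm and from 0.526% to 898.3% in epiblast. By the full criteria, 5 paraxial and 7 lateral and intermediate genes were higher in mesoderm than in both other layers, so by these criteria low levels outside mesoderm were not particular to the 9 genes. With edgeR at the assumed coefficient of 0.4, the list genes called in either direction fell from 19 to 7 for mesoderm against endoderm. Against epiblast they fell from 18 to 3.

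**Figure D3:**
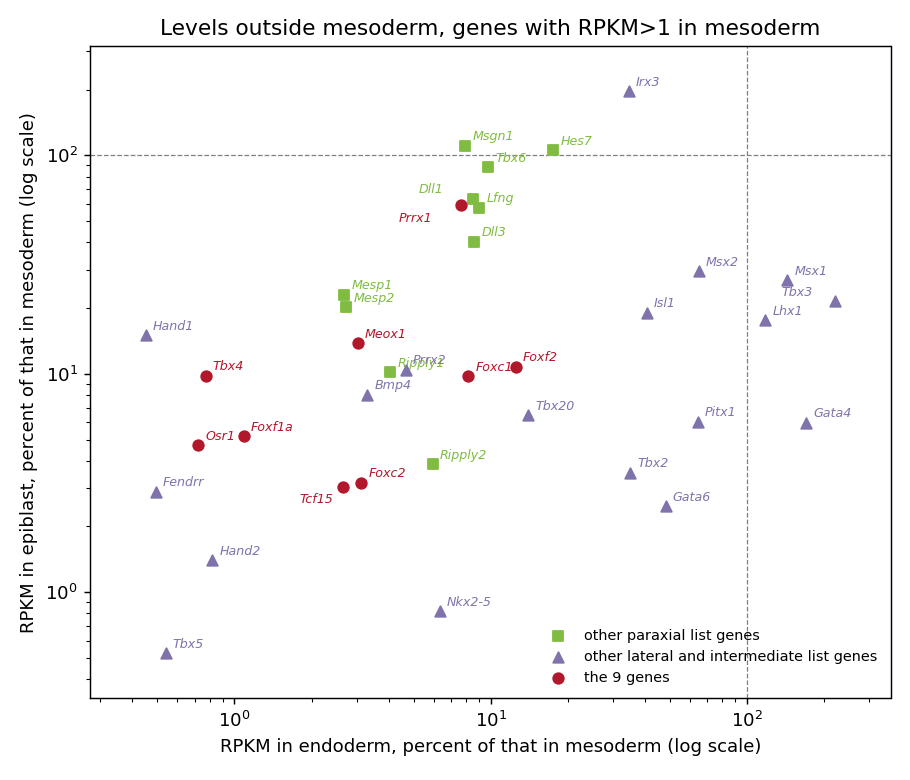
RPKM in endoderm (x axis) and in epiblast (y axis), each as a percent of that in mesoderm and on a log scale, for the 9 genes and for genes of both lists with RPKM>1 in mesoderm, except 1 list gene that is not shown. The 9 genes lie at or below 12.5% in endoderm, and all but *Prrx1*, at 59.1%, lie at or below 13.8% in epiblast; *Tbx6*, *Msgn1* and *Hes7* lie near 100% in epiblast, and *Gata4*, *Tbx3*, *Msx1* and *Lhx1* beyond 100% in endoderm.

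Markers of other cell types moved with these levels in part. All 6 endothelial markers were highest in mesoderm, and their summed RPKM was 54.7 in mesoderm but 1.64 in endoderm and 3.15 in epiblast, most of it *Etv2* (47.2 in mesoderm). The allantois markers *Hoxa10*, *Hoxa11* and *Vcam1* were also highest in mesoderm. *Hoxa13*, with 4, 5 and 2 reads in endoderm, mesoderm and epiblast, was not called in mesoderm against either layer. With *Hoxa13* included, the allantois markers summed to 2.29 in mesoderm but 0.120 in endoderm and 0.208 in epiblast. *Spin2c*, the other allantois marker, was not listed under that name. The part of endothelial and allantois cells in the mesoderm levels was not tested. Of 5 decidual markers, *Prl8a2* and *Prl3c1* were not listed under those names. The sum of the others ranged from 0.989 in endoderm to 5.85 in mesoderm, where most of it was *Des* (4.95). *Pgr* and *Dcn* were instead highest in epiblast, at RPKM of 1.22 and 0.509, and *Dcn* was lowest in mesoderm (0.104). The erythroid markers summed to 7.67 in mesoderm but 3.88 in endoderm and 4.47 in epiblast. *Hba-x* and *Hbb-y* were not listed under those names. By contrast, no trophoblast or node marker was highest in mesoderm, and both sums were lowest there. The trophoblast sum was 28.5 in mesoderm, against 45.8 for endoderm and 39.7 for epiblast, without *Tpbpa*, *Prl3d1* and *Prl2c2*, which were not listed. For node markers the mesoderm sum was 81.7, against 178.9 for endoderm and 247.1 for epiblast.

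The neighbours of the forkhead genes were examined because both pairs lie in forkhead gene clusters. *Fendrr*, a noncoding RNA gene of lateral mesoderm, starts 1.28 kb from *Foxf1a* and is read in the other direction. It had 1, 199 and 6 reads in the endoderm, mesoderm and epiblast libraries, or RPKM of 0.0101, 2.05 and 0.0590. Its mesoderm to endoderm ratio was 202.9 on 1 read (36.0 to 8055) and its mesoderm to epiblast ratio 34.7 (15.7 to 95.6). *Foxl1*, a gut mesenchyme gene 9.05 kb from *Foxc2*, had 23, 92 and 4 reads and was likewise highest in mesoderm. *Mthfsd*, a folate enzyme gene between *Foxf1a* and *Foxc2*, was at RPKM of 8.38, 9.66 and 7.33, so it was also highest in mesoderm but by 1.15-fold over endoderm and 1.32-fold over epiblast.

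On chromosome 13, *Foxq1*, the next forkhead gene before *Foxf2*, had 59, 19 and 6 reads and was highest in endoderm. *Gmds*, next to *Foxc1*, was at RPKM of 7.19, 4.18 and 4.47 and was also highest in endoderm. *Tbx2*, the T-box neighbour 44.5 kb from *Tbx4*, had 116, 325 and 12 reads, with mesoderm 2.86-fold above endoderm (2.30 to 3.56) and 28.3-fold above epiblast (16.0 to 55.4). It had its highest level in mesoderm, as *Tbx4* did, but a larger share of its reads in endoderm. *Srxn1*, an antioxidant enzyme gene 32.2 kb from *Tcf15*, was at RPKM of 2.23, 3.32 and 1.12. The remaining listed neighbours within 50 kb, *Scrt2* and *1700018A04Rik*, had no more than 17 reads in any library.

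**Figure D4:**
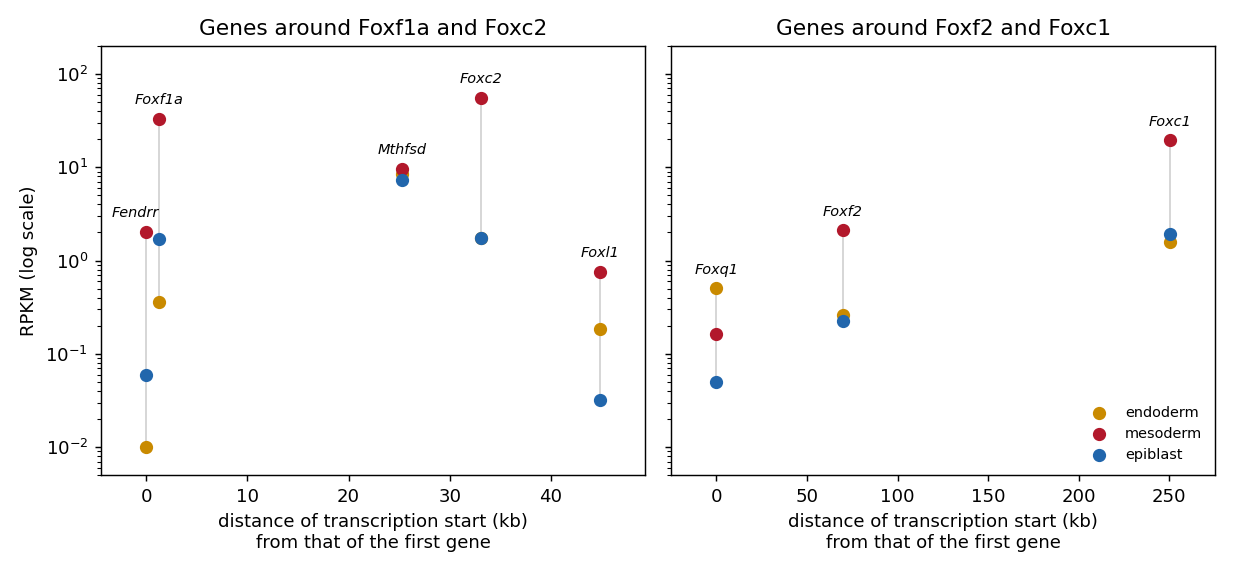
RPKM (log scale) in the 3 libraries of genes of the forkhead clusters, placed by the distance of their annotated starts in kb from that of *Fendrr* (left) and of *Foxq1* (right). The mesoderm points of *Fendrr*, *Foxf1a*, *Foxc2*, *Foxl1*, *Foxf2* and *Foxc1* lie above their endoderm and epiblast points; the points of *Mthfsd* nearly coincide and *Foxq1* is highest in endoderm.

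The genes most like the 9 were sought among genes with RPKM>5 in any layer, by the Euclidean distance between their shares of RPKM over the 3 layers. The median profile was 2.59% endoderm, 90.4% mesoderm and 8.27% epiblast. The closest 5 genes were *Zeb1*, *Pcp4*, *Bmp4*, *Pmp22* and *Mef2c*, at distances of 0.00819 to 0.0179. *Zeb1* encodes a zinc finger repressor of epithelial genes, with RPKM of 0.165, 6.27 and 0.549. For *Foxf1a* alone they were *Etv2*, *Snai2*, *Acta2*, *Gucy1b3* and *Smarcd3*, and *Etv2*, a factor of blood and vessel progenitors, was at 0.457, 47.2 and 2.16. A likeness over 3 values is weak, and many genes high in mesoderm share it.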

How the data were processed

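The authors isolated RNA of the 3 germ layers, made paired-end libraries and sequenced them on an Illumina HiSeq. For each gene the authors deposited a count of reads that mapped uniquely, its length, its coverage (percent of the length) and its RPKM. The deposited RPKM equals reads divided by length and by the total of reads on genes, to within a relative 2.03e-07. The submitters' processing notes name TopHat, mm9 and mm10. The counting program and annotation of the gene table are not given in the sources used here.

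A gene absent from a library was taken as 0 reads, which allows 3, and all intervals and floors cover counting error only. Genes were called by the criteria given above in each of 3 pairs of libraries. With 1 library per layer, the quasi-likelihood test of edgeR had no residual to fit, and its exact test was run with the biological coefficient of variation assumed to be 0.2 or 0.4. Other alternatives were RPKM>1, RPKM>10 or no RPKM criterion, Fold Change>4, 4 scalings, pseudocounts of 0.1 and 1, and Benjamini-Yekutieli adjustment. Halved reads, annotated exon lengths, and edgeR without the RPKM criterion, were added after seeing the data. Ratios on 1 to 3 reads are observed values with intervals, where the design had set 3 reads as a bound. The members and all lists were chosen with earlier results of these data known. Named genes were the 9 members, their paralogs and neighbours within 50 kb, the list genes and the 5 nearest profiles. *Fendrr* is listed as *1110050K14Rik*. The values of 2 list genes are not reported here. Calls were tested on simulated data. The tools were edgeR 4.0.16 in R 4.3.3, and SciPy 1.17.1, numpy 2.4.6, pandas 2.3.3 and matplotlib 3.10.9 in Python 3.11.15.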

Additional observations from a re-analysis of the deposited data

How the results depend on the processing

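Main counts of the 9 genes were 5 for mesoderm against endoderm, 5 for mesoderm against epiblast and 0 for endoderm against epiblast. With RPKM>1 they were 9, 8 and 3. Without the RPKM criterion they were 9, 8 and 4, with edgeR at a coefficient of 0.2 and no RPKM criterion 9, 8 and 3, and with halved reads and no RPKM criterion 9, 8 and 3. At a coefficient of 0.4, edgeR called 4, 2 and 0 genes, and without the RPKM criterion 6, 2 and 0. For the 41 list genes, the main counts, taken over both directions, were 19, 18 and 16. The 19 include 1 gene, *Tbx3*, that was lower in mesoderm. Of the 16, 7 paraxial and 2 lateral and intermediate genes were higher in epiblast, and 7 lateral and intermediate genes were lower there. Without the RPKM criterion the counts over both directions were 29 for mesoderm against endoderm and 26 for endoderm against epiblast. At a coefficient of 0.4, edgeR called 7, 3 and 4, and without the RPKM criterion 9, 7 and 5. The median log2 ratio of the 9 genes was 2.98 (mesoderm to endoderm) and 2.29 (mesoderm to epiblast) with a pseudocount of 1, against 5.05 and 3.36. For endoderm to epiblast it was -2.19, with a pseudocount of 1 -0.16 and with 0.1 -0.90. A pseudocount shrinks the ratios of genes at low RPKM by construction. The 4 scalings moved the ratios by at most 0.13 on the log2 scale, and no called result reversed. The endoderm to epiblast log2 ratio of *Foxc2*, -0.02 and not called, became 0.07 with the same RPKM total and 0.09 with the median of ratios or TMM. Depth limits the ratios of *Osr1* and *Tbx4* to endoderm, which rest on 3 reads and 1 read. No paired analysis was possible because each germ layer had 1 library.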

Other observations

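The 4 forkhead genes can be set among their family. Of 41 listed forkhead genes, 16 were highest in mesoderm, 14 in endoderm and 11 in epiblast, where 31.1% of all genes were highest in mesoderm. Among the 22 forkhead genes with RPKM>5 in any library, 9 were highest in mesoderm, 10 in endoderm and 3 in epiblast. By the full criteria, 4 were higher in mesoderm than in both other layers, *Foxc1*, *Foxc2*, *Foxf1a* and *Foxh1*. *Foxh1*, a partner of Smad proteins in Nodal signalling, had the highest mesoderm RPKM of the family, 252.9, with 72.2 in endoderm and 125.4 in epiblast. It was therefore high in all layers, unlike *Foxc2*, the second in mesoderm at 55.5. Of 17 listed T-box genes, 9 were highest in mesoderm, as were 4 of the 7 with RPKM>5 in any library. By the full criteria, *Tbx1* and *Tbx20* were higher in mesoderm than in both other layers. *Tbx20*, a heart factor, had RPKM of 1.60, 11.5 and 0.739 in endoderm, mesoderm and epiblast, and *Tbx4* ranked 10 in mesoderm among the 17.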
